A study of Mus musculus with 2 samples.

Results

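The 6 forkhead genes described here lie in a pair of related clusters in the mouse genome: Foxq1, Foxf2 and Foxc1 on chromosome 13, and Foxf1, Foxc2 and Foxl1 on chromosome 8. CpG methylation was read from 10 kb before to 10 kb after each of the 6 genes. These windows held 1153 of the 1790826 CpGs in the table, 637 on chromosome 13 and 516 on chromosome 8. Of these, 106 lay in the windows of both Foxc2 and Foxl1 and were counted once. The genes were chosen by the percent methylation of their CpGs in the 2 libraries, Dnmt1+/+ and Dnmt1-/-, with a higher level in Dnmt1-/- near Foxc1 already known. The values of that contrast are therefore a description and carry no test of the genes as a group.

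The data came from reduced-representation bisulfite sequencing (RRBS) of mouse embryonic fibroblasts (MEFs), in an extended-coverage form that reads CpGs next to restriction sites. One group was Dnmt1-/- MEFs, which carry on both chromosomes the hypomorphic n allele of Dnmt1 (Dnmt1 n/n), and the other was Dnmt1+/+ MEFs. Dnmt1 encodes the enzyme that copies CpG methylation onto the new DNA strand after replication. Both lines were also homozygous null for trp53, so p53 was missing from the controls too. Each genotype had 1 library, the allele is hypomorphic despite the -/- name, and a difference between the libraries cannot be told apart from a difference between the cultures. Age and sex of the embryos were not given in the sources used here.

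Forkhead proteins are transcription factors that bind DNA through a winged-helix domain, and each cluster pairs a FoxF gene with a FoxC gene, relics of an old duplication. Foxc1 and Foxc2 act in mesoderm and neural crest, in the eye, heart, blood vessels and lymphatics, and Foxf1 and Foxf2 act in the mesenchyme of lung, gut and palate. Foxq1 is known from hair and epithelia and Foxl1 from the fibroblasts beneath the gut epithelium. The promoters of such developmental regulators usually lie in CpG islands that are free of methylation in somatic cells, while the flanks of these islands vary. Where maintenance methylation is short, methylation is known to be diluted at each division.

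A pair of positions on chromosome 13 carries the difference described here, and their reference sequence is shown together with the promoters of the same 2 genes, all on the plus strand of NCBIM37 (mm9), the strand of transcription. The Foxc1 stretch begins beyond the annotated end of the gene, and its first part is chr13:31902909-31903208. The Foxf2 stretch lies in the intron, and its first part is chr13:31721111-31721410. Capitals in these 2 sequences mark the CpGs that were at least 25 percentage points higher in Dnmt1-/- MEFs, 26 of 30 measured CpGs at Foxc1 and 18 of 20 at Foxf2, leaving out those in CCGG or TCGA. The promoter sequences are the 250 bp before each start, chr13:31898265-31898514 for Foxc1 and chr13:31717435-31717684 for Foxf2, and capitals there mark the measured CpGs at 20% or less in both libraries, again leaving out CCGG and TCGA. These were all 17 such CpGs measured at Foxc1 and all 3 at Foxf2.
Foxc1 stretch: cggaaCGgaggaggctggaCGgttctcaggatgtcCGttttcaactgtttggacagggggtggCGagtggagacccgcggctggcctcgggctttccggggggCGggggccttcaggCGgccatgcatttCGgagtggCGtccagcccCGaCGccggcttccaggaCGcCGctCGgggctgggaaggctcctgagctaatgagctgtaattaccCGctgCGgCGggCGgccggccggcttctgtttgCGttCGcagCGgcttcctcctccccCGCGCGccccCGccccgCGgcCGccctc
Foxf2 stretch: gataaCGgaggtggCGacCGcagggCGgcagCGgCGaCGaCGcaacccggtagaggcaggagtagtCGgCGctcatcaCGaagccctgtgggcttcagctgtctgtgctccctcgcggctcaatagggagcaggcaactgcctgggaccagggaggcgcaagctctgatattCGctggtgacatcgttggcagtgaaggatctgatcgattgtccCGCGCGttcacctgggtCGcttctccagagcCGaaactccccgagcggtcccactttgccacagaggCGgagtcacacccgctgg
Foxc1 promoter: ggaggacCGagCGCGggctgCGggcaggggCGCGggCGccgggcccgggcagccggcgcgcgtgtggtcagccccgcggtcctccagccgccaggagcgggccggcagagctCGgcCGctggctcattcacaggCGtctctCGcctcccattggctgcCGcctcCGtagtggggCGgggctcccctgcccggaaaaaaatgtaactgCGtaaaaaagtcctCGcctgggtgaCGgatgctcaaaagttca
Foxf2 promoter: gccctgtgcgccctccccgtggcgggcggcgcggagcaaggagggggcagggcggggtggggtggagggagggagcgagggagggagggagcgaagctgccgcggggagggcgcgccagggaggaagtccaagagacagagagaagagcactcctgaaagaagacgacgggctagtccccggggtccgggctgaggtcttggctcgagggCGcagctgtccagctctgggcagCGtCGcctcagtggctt

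Methylation is the percentage of methylated calls at a CpG, and the table lists only CpGs with at least 10 calls in both libraries. The Dnmt1+/+ library had 74636195 calls and the Dnmt1-/- library 78401157, with a median depth of 29 and 30 calls per CpG. CpGs in CCGG or TCGA, 44.4% of the table, read high in both libraries even beside unmethylated neighbours: in the 6 windows they averaged 60.9% in Dnmt1+/+ and 57.6% in Dnmt1-/- MEFs, where the other CpGs averaged 13.1% and 14.3%. Means were therefore taken over the other CpGs, each counted once. Over the 996064 other CpGs of the table the mean was 45.0% in Dnmt1+/+ and 15.1% in Dnmt1-/- MEFs. Intervals are 95% Wilson intervals on pooled calls, which cover counting error only and treat every call as independent. Neighbouring CpGs share reads, and reads carry no molecular identifiers, so the intervals are too narrow even for counting error. The ratio of Dnmt1-/- to Dnmt1+/+ calls was lowest on chromosome 13, at 0.755, against 0.942 to 1.39 on the other chromosomes and 1.09 on chromosome 8. The part of this depth difference in the results on chromosome 13 was not tested.

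The 2 clusters differed in opposite directions. On chromosome 13 the mean over 492 other CpGs was 10.5% in Dnmt1+/+ and 19.0% in Dnmt1-/- MEFs, a difference of 8.49 points. On chromosome 8 the mean over 375 other CpGs was 16.5% in Dnmt1+/+ and 8.09% in Dnmt1-/- MEFs, a difference of -8.38 points. Without the Foxc1 and Foxf2 stretches, which were delimited after their values were seen, the 386 CpGs left on chromosome 13 differed by -3.86 points, so the direction of the chromosome 13 mean rests on the 2 stretches.

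By Fisher's exact test per CpG on methylated and unmethylated calls (two-sided, Benjamini-Hochberg adjustment over the whole table, adjusted p under 0.05), 107 of the 637 CpGs on chromosome 13 were higher in Dnmt1-/- MEFs, beside 0.462% of all CpGs in the table. In the same cluster 41 CpGs were lower, beside 43.7% of all CpGs. On chromosome 8, 4 CpGs were higher and 81 were lower. The test compares 2 libraries rather than genotypes, and since the same contrast led to the choice of genes, nothing is read from these counts about the clusters. All 107 higher calls on chromosome 13 lay in the windows of Foxc1, with 74, and Foxf2, with 33.

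**Figure D1:**
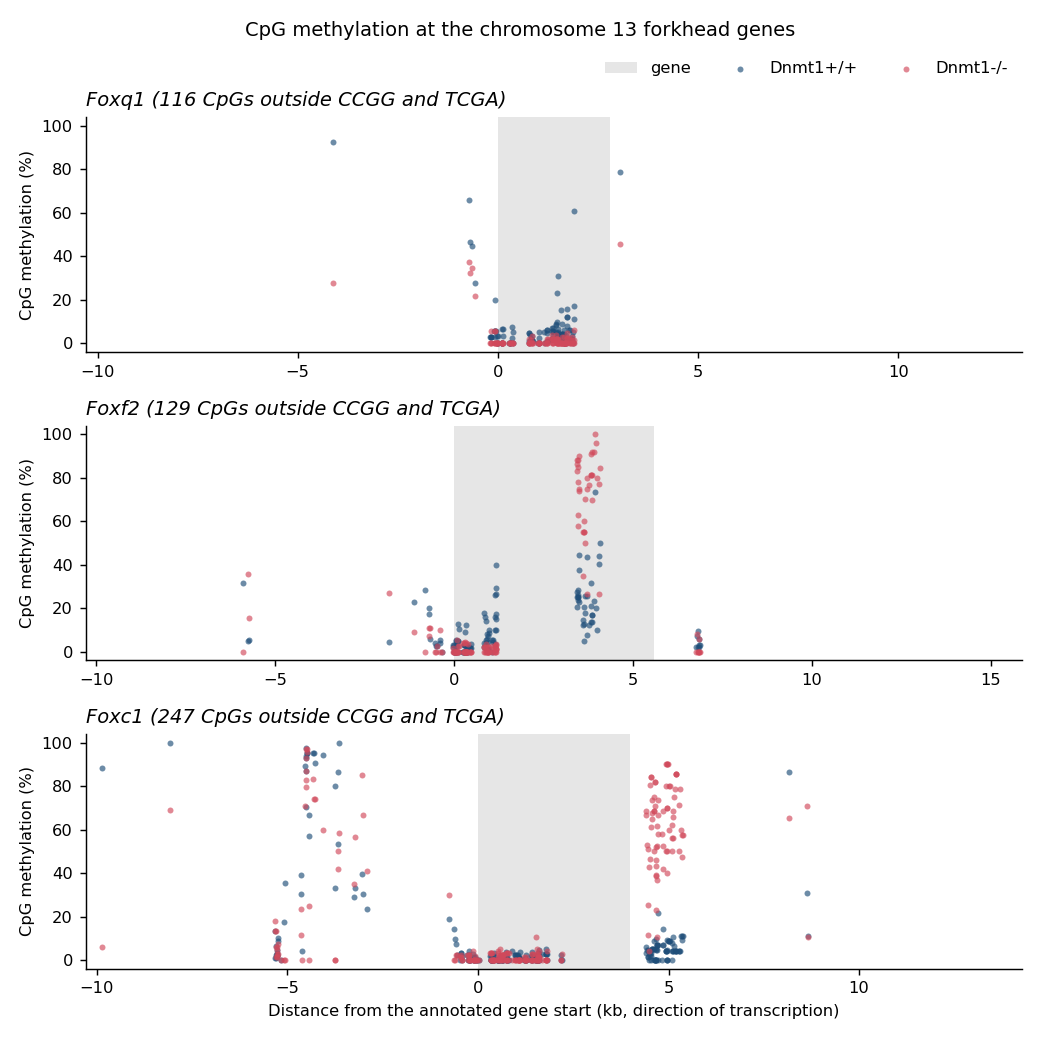
Methylation of single CpGs (percent, vertical axis) against distance from the gene start (kb, horizontal axis) at Foxq1, Foxf2 and Foxc1, with Dnmt1+/+ in blue, Dnmt1-/- in red and the annotated gene in grey; CpGs in CCGG or TCGA are left out. Red points lie mostly above blue points in a block of 71 CpGs past the end of Foxc1 and, with an exception at 4054 bp, in a block of 35 CpGs inside Foxf2. CpGs around the starts are mostly low in both libraries, apart from a group at Foxq1 from -720 to -580 bp.

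Foxc1 (ENSMUSG00000050295.2, chr13:31898515-31902504, plus strand) is a single-exon gene, and its window held 316 measured CpGs, 40.3% of the CG dinucleotides in it. The mean over 247 other CpGs was 11.2% in Dnmt1+/+ and 25.5% in Dnmt1-/- MEFs. The difference lay beyond the gene: in the sequence past the annotated end the mean over 74 CpGs was 6.43% in Dnmt1+/+ and 60.6% in Dnmt1-/- MEFs.

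The Foxc1 stretch ran from 4399 to 5381 bp after the start, beginning 410 bp past the annotated end of the gene. Over its 71 other CpGs methylation in Dnmt1+/+ MEFs ranged from 0% to 21.4%, with a median of 4.35%, and in Dnmt1-/- MEFs from 4% to 90.0%, with a median of 61.9%. The pooled level was 4.45% of 2856 calls in Dnmt1+/+ (interval 3.75% to 5.27%) and 59.5% of 2077 calls in Dnmt1-/- MEFs (57.3% to 61.6%). In Dnmt1+/+ MEFs 15 CpGs had no methylated call, and in Dnmt1-/- MEFs 15 reached 80% or more. Of the 71 CpGs, 66 were at least 25 points higher in Dnmt1-/- MEFs, the difference by which the stretch was delimited. It was seen at 0.433% of the other CpGs of the table. Among all 247 other CpGs of the window 67 were called higher and 7 lower, beside 0.635% and 44.2% of the other CpGs of the table.

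CpGs on the same restriction fragment share reads, so the stretch was also read by fragment. Its CpGs fell on 9 fragments between neighbouring CCGG or TCGA sites, and all 9 were higher in Dnmt1-/- MEFs. This follows largely from the rule, which delimited the stretch by CpGs higher in Dnmt1-/- MEFs, so the fragment values are a description. The lowest and highest fragment means were 2.28% and 10.5% in Dnmt1+/+ MEFs, against 40.1% and 76.5% in Dnmt1-/- MEFs. The least covered fragment, from 4927 to 5027 bp, had only 10 Dnmt1-/- calls at each CpG, a depth at which even 0 methylated calls allows a level of up to 30% (3 calls of 10). The 11 CpGs of the stretch in CCGG or TCGA went from a mean of 59.0% in Dnmt1+/+ to 81.6% in Dnmt1-/- MEFs, and 9 of the 11 were higher.

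The level in Dnmt1-/- MEFs was not even along the stretch. In the first fragment, CpGs at 4469, 4471 and 4481 bp stood at 11.8%, 25.5% and 4% in Dnmt1-/- MEFs with 50 or 51 calls each, among neighbours well above them. The other 2 CpGs that did not reach the 25-point difference, at 4681 and 4706 bp, stood at 23.1% and 10.5% with 13 and 19 calls. These interruptions split the stretch into 2 runs of consecutive CpGs that each differed by 25 points or more. The first run held 20 CpGs from 4497 bp, with means of 3.15% and 64.2%, and the second held 39 CpGs from 4708 bp, with means of 6.14% and 66.4%. Of the 184 such runs of higher methylation in the table, 0 held more CpGs than the second run of Foxc1 and 5 held more than the first.

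**Figure D2:**
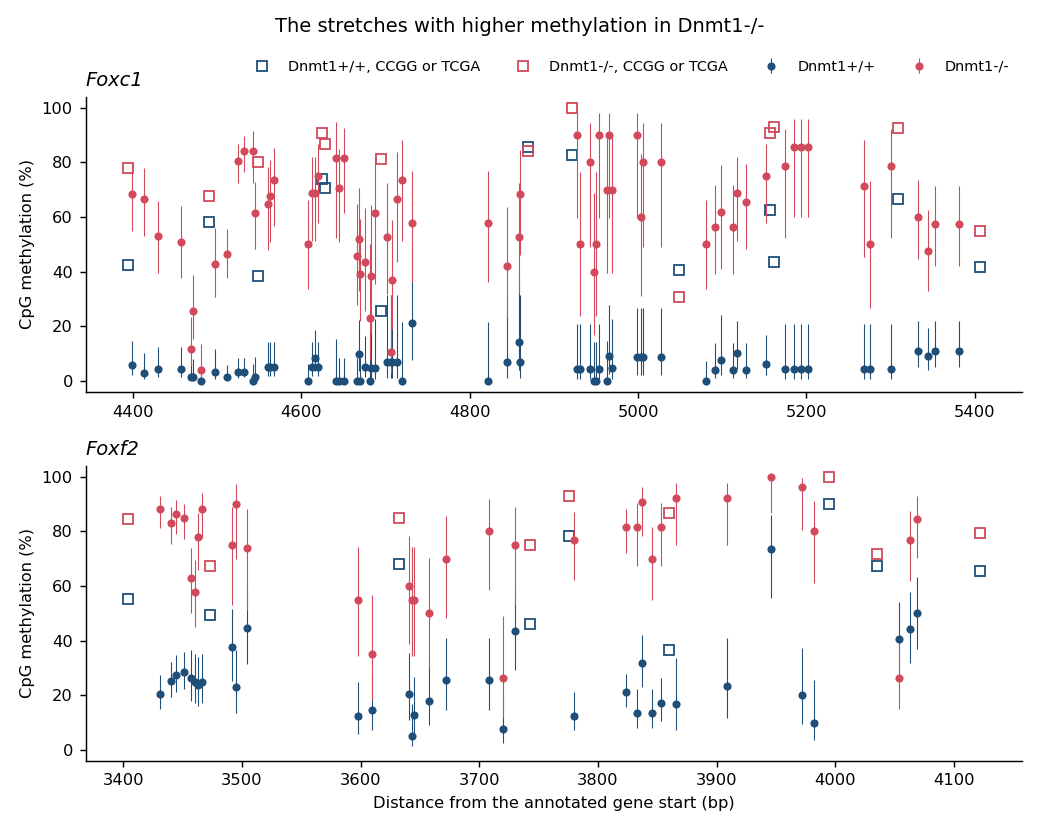
Methylation of single CpGs (percent, vertical axis) against distance from the gene start (bp, horizontal axis) across the Foxc1 and Foxf2 stretches, with Dnmt1+/+ in blue and Dnmt1-/- in red; filled points are CpGs outside CCGG and TCGA with 95% Wilson intervals, and open squares are CpGs in CCGG or TCGA. At Foxc1 the blue points stay at or under 21.4% while the quartiles of the red points are 50% and 75%, and at Foxf2 the blue points start from a higher median of 23.3%.

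The borders of the Foxc1 stretch fall in sequence where no CpG outside CCGG and TCGA was measured. The last such CpG before it, 2200 bp away, was at 0% in Dnmt1+/+ and 2.78% in Dnmt1-/- MEFs, and the first one after it, 2771 bp away, was at 86.7% and 65.5%. The stretch spans 984 bp with 98 CG dinucleotides, a GC content of 68.4% and an observed-to-expected CG ratio of 0.852, values usual for a CpG island. It was read less deeply than the rest of its window, with a median of 40 calls in Dnmt1+/+ and 22 in Dnmt1-/- MEFs against 60 and 41 outside it, while the ratio of Dnmt1-/- to Dnmt1+/+ calls was 0.727 within it and 0.729 outside it. The part of depth in the result was not tested. The other 176 CpGs of the window went from 13.7% to 11.1%.

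Around the start of Foxc1 methylation was low in both libraries. Within 1 kb of the start the mean over 77 CpGs was 1.45% in Dnmt1+/+ and 1.47% in Dnmt1-/- MEFs, with pooled intervals of 0.882% to 1.46% and 0.926% to 1.64% that overlap. The rest of the gene body, 52 CpGs, had pooled levels of 1.24% and 0.851%. The low levels include the 17 capitals of the Foxc1 promoter sequence above, whose means were 0.735% in both libraries, while the CG-rich sequence past the end of the gene was methylated in Dnmt1-/- MEFs.

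In the Foxc1 window many CpGs that were methylated in Dnmt1+/+ MEFs were still methylated in Dnmt1-/- MEFs. Of its 247 CpGs, 17 were at 80% or more in Dnmt1+/+ MEFs, with a mean of 92.2%, and their mean in Dnmt1-/- MEFs was 68.4%. All but the CpG at 8152 bp lay upstream of the gene. Over the whole table the 377268 CpGs of this class went from 94.6% to 32.0%. The CpGs from -4534 to -4482 bp, on 69 to 138 Dnmt1-/- calls each, stood between 71.0% and 97.1% in Dnmt1-/- MEFs. They lie between neighbouring measured CCGG or TCGA sites at -4552 and -4470 bp, so they share reads and weigh heavily in the mean of the 17. Others of the 17, with fewer calls, were spread: the CpG at -9862 bp went from 88.2% to 5.88%, the CpG at -8082 bp from 100% to 69.2%, and the CpG at -3763 bp from 80% to 0%, on 11 to 17 calls each.

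Foxf2 (ENSMUSG00000038402.2, chr13:31717685-31723272, plus strand) has 1 intron, and the difference at this gene lay inside it. Its window held 174 measured CpGs, and the mean over 129 other CpGs was 11.7% in Dnmt1+/+ and 21.5% in Dnmt1-/- MEFs. All 35 other CpGs measured in the intron belong to the Foxf2 stretch, from 3431 to 4069 bp after the start. Among them methylation in Dnmt1+/+ MEFs ranged from 5.13% to 73.3%, with a median of 23.3%, and in Dnmt1-/- MEFs from 26.3% to 100%, with a median of 78.0%.

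The pooled level of the Foxf2 stretch was 24.5% of 2477 calls in Dnmt1+/+ (22.9% to 26.2%) and 77.1% of 1508 calls in Dnmt1-/- MEFs (74.9% to 79.1%). Of its CpGs, 32 were at least 25 points higher in Dnmt1-/- MEFs, the difference by which the stretch was delimited, and 30 were called higher. These counts stand beside 0.433% and 0.635% of the other CpGs of the table. All 6 fragments of the Foxf2 stretch were higher, which again follows largely from how the stretch was delimited. The lowest and highest fragment means were 18.3% and 44.9% in Dnmt1+/+ MEFs, against 58.9% and 92.0% in Dnmt1-/- MEFs. The CpG at 4054 bp went the other way, from 40.4% of 52 calls to 26.3% of 38 calls. It thus started from a partly methylated state, unlike the Foxc1 stretch, where 70 of the 71 CpGs were at 20% or less in Dnmt1+/+ MEFs.

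Within the Foxf2 stretch 3 runs of consecutive CpGs differed by 25 points or more. They began at 3431 bp (12 CpGs, 26.6% to 76.9%), at 3641 bp (6 CpGs, 17.9% to 61.7%) and at 3730 bp (12 CpGs, 24.7% to 84.7%). The 7 CpGs of the stretch in CCGG or TCGA were all higher, with means of 62.2% and 82.7%. The stretch spans 640 bp with a GC content of 62.0% and an observed-to-expected CG ratio of 0.914, so it is CG-rich like the Foxc1 stretch. Its ratio of Dnmt1-/- to Dnmt1+/+ calls, 0.609, was below the 0.786 of the rest of the window, and the part of this in the result was not tested.

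Outside its intron Foxf2 was low. The 51 CpGs of its coding sequence went from 7.31% in Dnmt1+/+ to 0.983% in Dnmt1-/- MEFs, and the 67 CpGs within 1 kb of the start from 4.73% to 1.34%. Leaving out CCGG and TCGA, the last measured CpG before the stretch, 2247 bp away, stood at 9.88% in Dnmt1+/+ and 3.75% in Dnmt1-/- MEFs, and the first one after it, 2688 bp away, at 2.38% and 0%. Over the 94 CpGs outside the stretch the means were 6.70% and 2.24%.

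A stretch was at least 5 CpGs with a difference of 25 points or more, neighbours among them at most 1 kb apart, whatever the CpGs between them read. By this rule 240 stretches of higher methylation were found in the whole table. Counted by CpGs that differed by 25 points, 1 of the 240 held more than the Foxc1 stretch and 12 held more than the Foxf2 stretch. Of 9406 protein-coding windows of the same kind with at least 50 other CpGs, 1.57% held a run of higher methylation by the stricter rule, which both genes do.

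Foxq1 (ENSMUSG00000038415.8, chr13:31650039-31652839, plus strand) is the third gene of the cluster and showed no such stretch. Over 116 other CpGs the mean was 7.75% in Dnmt1+/+ and 2.46% in Dnmt1-/- MEFs, 16 of its 147 measured CpGs were called lower, beside 43.7% of all CpGs of the table, and 0 were called higher, beside 0.462%. The median CpG stood at 3.85% in Dnmt1+/+ and at 0% in Dnmt1-/- MEFs. Its 80 coding CpGs went from 5.60% to 0.856%, and an antisense transcript, A530084C06Rik, overlaps it.

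A few CpGs of Foxq1 were methylated in Dnmt1+/+ MEFs. The CpG at -4121 bp went from 92.7% of 110 calls to 27.6% of 58 calls, and the CpG at 1901 bp, in the coding sequence, from 60.6% of 94 calls to 6.25% of 64 calls. A group in the promoter, from -720 to -580 bp, started between 27.6% and 66.1% and stood between 21.7% and 37.5% in Dnmt1-/- MEFs.

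Foxf1 (Foxf1a in the annotation, ENSMUSG00000042812.2, chr8:123608286-123610851, plus strand) was low before its start. After the start some CpGs were partly methylated, with coding CpGs reaching 59.6% in Dnmt1+/+ and 32% in Dnmt1-/- MEFs. The mean over 179 other CpGs of its window was 9.92% in Dnmt1+/+ and 5.65% in Dnmt1-/- MEFs, and within 1 kb of the start the mean over 97 CpGs was 7.76% and 3.25%. The upstream kilobase read 2.01% and 1.07%, and the downstream kilobase, which holds the first coding sequence, read 14.4% and 5.76%. Of its 247 measured CpGs 23 were called lower and 4 higher, beside 43.7% and 0.462% of all CpGs of the table.

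The 4 higher calls at Foxf1 lay past its end, mostly in a partly methylated patch. The CpG at 4917 bp went from 15.4% of 52 calls to 52.7% of 55 calls, and the CpG at 4941 bp from 25.2% to 51.8% on more than 100 calls in both libraries. Their neighbour at 4966 bp went from 38.5% of 52 calls to 7.14% of 56 calls, in the opposite direction. The 4 CpGs from 4 to 5 kb after the start had means of 25.7% in Dnmt1+/+ and 35.2% in Dnmt1-/- MEFs, and the 14 CpGs from 5 to 6 kb had means of 13.8% and 19.4%. Further out the levels were lower in Dnmt1-/- MEFs, with means of 75.3% and 21.3% over 2 CpGs from 9 kb. Over all 24 CpGs downstream of Foxf1 the means were 21.7% and 20.6%.

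Foxc2 (ENSMUSG00000046714.6, chr8:123640071-123642792, plus strand), the paralogue of Foxc1 and likewise a single-exon gene, had 0 CpGs called higher among 256 measured and 48 called lower, beside 0.462% and 43.7% of all CpGs of the table. Over 190 other CpGs the mean was 20.4% in Dnmt1+/+ and 8.96% in Dnmt1-/- MEFs. Its gene body from 1 kb after the start was nearly free of methylation in both, at 1.95% and 1.04% over 50 CpGs, and the 47 CpGs within 1 kb of the start stood at 5.67% and 2.62%. In the kilobase before the start, 11 CpGs, all from -992 to -851 bp, had means of 19.9% in Dnmt1+/+ and 8.05% in Dnmt1-/- MEFs, and 14 CpGs from -3 to -2 kb had means of 10.5% and 2.73%.

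Methylated CpGs near Foxc2 were lower in Dnmt1-/- MEFs to different extents. The CpG at 8310 bp went from 94.1% of 68 calls to 5.63% of 71 calls, and the CpG at 8284 bp from 77.9% of 136 calls to 1.41% of 142 calls. Upstream, the CpG at -2231 bp went from 14 of 14 calls methylated to 5 of 20. The 15 CpGs at 80% or more in Dnmt1+/+ MEFs, some of them in the Foxl1 gene, went from a mean of 89.9% to 36.8%, and 4 of them stood at 20% or less in Dnmt1-/- MEFs. From 11 to 12 kb after the Foxc2 start, already inside the Foxl1 gene, 8 CpGs went from 74.5% to 46.9%.

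**Figure D3:**
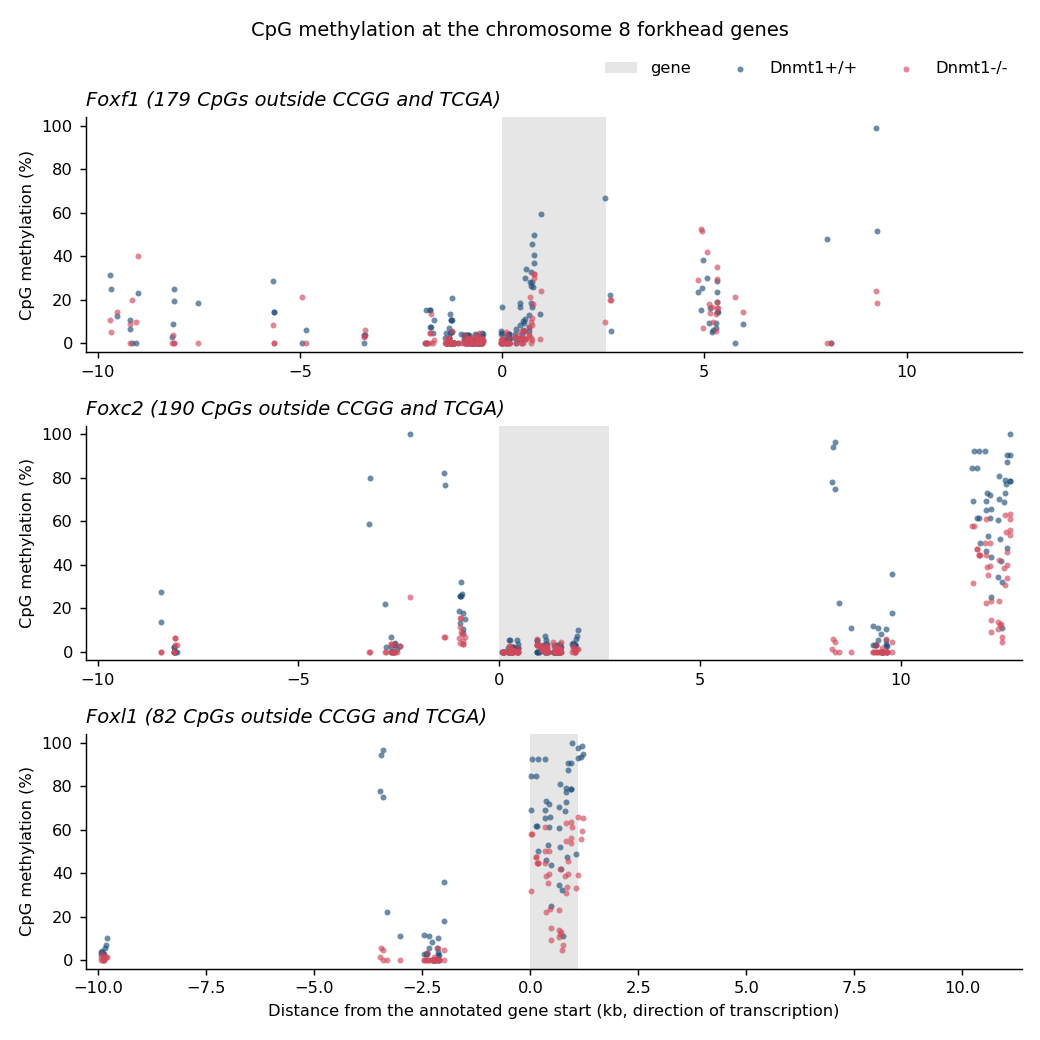
Methylation of single CpGs (percent, vertical axis) against distance from the gene start (kb, horizontal axis) at Foxf1, Foxc2 and Foxl1, drawn as for chromosome 13, with Dnmt1+/+ in blue, Dnmt1-/- in red and the gene in grey. Foxc2 and Foxf1 are mostly low around their starts, with partly methylated CpGs after the Foxf1 start. At Foxl1 the mean within 1 kb of the start is 66.2% in blue and 37.6% in red.

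Foxl1 (ENSMUSG00000043867.4, chr8:123651840-123652929, plus strand) had the highest mean of the 6 genes within 1 kb of its start, at 66.2% in Dnmt1+/+ MEFs. No CpG outside CCGG and TCGA was measured in the kilobase before the Foxl1 start. Foxl1 is listed as a pseudogene in the annotation of this build, and a read-through model, Gm20388, spans the chromosome 8 cluster. The 38 CpGs measured within 1 kb of its start, all of them inside the gene, ranged from 10.9% to 100% in Dnmt1+/+ MEFs, with a median of 69.2%, whereas Dnmt1-/- MEFs ranged from 4.55% to 63.4%, with a median of 40.9%. The pooled levels were 64.0% (62.0% to 65.9%) and 34.6% (32.7% to 36.5%).

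The levels changed sharply over a few kilobases at Foxl1. Further than 1 kb upstream of the start, 38 CpGs stood at 14.4% in Dnmt1+/+ and 0.913% in Dnmt1-/- MEFs, while the 5 CpGs past the gene end stood at 95.4% and 57.0%. These 5 CpGs, chr8:123652938-123653045, formed a run in which each was at least 25 points lower, a difference seen at 44.4% of the other CpGs of the table. A second run was formed by 6 CpGs inside the gene, chr8:123652494-123652581, with means of 56.3% and 17.6%. They were the longest runs of lower methylation in these windows, and the windows of Foxq1, Foxf2, Foxc1 and Foxf1 held 0 such runs. Of 119 measured CpGs in the Foxl1 window 42 were called lower, beside 43.7% of all CpGs of the table, and 0 higher. The 17 CpGs at 80% or more in Dnmt1+/+ MEFs went from 91.9% to 47.3%.

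The paralogues could not be compared at the 2 stretches themselves. At the distance from the start that the Foxc1 stretch has, and for 1 kb on both sides, Foxc2 had 0 measured CpGs outside CCGG and TCGA. At the distance of the Foxf2 stretch Foxf1 also had 0, and with 1 kb added on both sides it had 7, whose mean was 28.2% in Dnmt1+/+ MEFs against 27.2% in Dnmt1-/- MEFs. With their calls pooled the same 7 stood at 26.8% and 37.0%, so the direction there depends on how CpGs are weighted. Whether the chromosome 8 genes share the behaviour of Foxc1 and Foxf2 there was not measured.

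The 6 genes also differed in what became of CpGs that were low at first. Of the CpGs at 20% or less in Dnmt1+/+ MEFs, 68 of 215 stood above 20% in Dnmt1-/- MEFs at Foxc1 (31.6%), 15 of 100 at Foxf2, 3 of 150 at Foxf1 and 0 at Foxq1, Foxc2 and Foxl1. Over the whole table this share was 1.39%. Sorted by the difference of the window means, Foxc1 was highest with 14.3 points, followed by Foxf2 with 9.75, Foxf1 with -4.27, Foxq1 with -5.29, Foxc2 with -11.4 and Foxl1 with -22.0. With 1 library per genotype, no spread is at hand to say which neighbours in this order differ. Of 9406 protein-coding windows, 18 had a larger difference than Foxc1 and 34 a larger one than Foxf2, and 109 were higher in Dnmt1-/- MEFs at all, with a median of -16.8 points.

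The windows were cut at 10 kb, and the measured CpGs outside CCGG and TCGA, to which the values that follow refer, differed in how close to the cuts they lay. At Foxf2 the outermost of these CpGs inside the window, 4095 bp and 8724 bp from its borders, stood at 31.6% and 2.94% in Dnmt1+/+ and at 0% in Dnmt1-/- MEFs. Outside it, 381 bp upstream, a CpG went from 1.56% of 64 calls to 16.4% of 55 calls, and 1813 bp downstream another went from 96.6% to 84.0%. At Foxc1 the CpG nearest outside was 11452 bp away upstream and 43066 bp away downstream. At Foxc2 the downstream cut fell between CpGs 1 bp inside (100% and 61.0%) and 110 bp outside (48.6% and 33.3%).

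The promoters of 38 other forkhead genes give the family background. For 32 of them at least 5 other CpGs were measured within 1 kb of the start, with a median of 6.67% in Dnmt1+/+ and 1.55% in Dnmt1-/- MEFs, beside 2.66% and 1.21% over 12837 protein-coding promoters. Of the 32, 6 were lower by at least 10 points, beside 14.6% of all promoters, and 0 were higher, beside 0.647%. Among the 6 genes of the clusters, only Foxl1, measured after its start alone, was lower by this much.

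The 6 other genes were Foxs1 (95.7% to 2.32%), Foxi1 (91.5% to 12.1%), Foxr1 (85.5% to 26.8%), Foxh1 (65.8% to 32.1%), Foxi2 (41.9% to 5.21%) and Foxa2 (16.7% to 3.40%). Foxi1 is known from the inner ear and kidney, Foxh1 as a partner of Smad proteins in Nodal signalling, and Foxa2 from endoderm. Foxl1, at 66.2% and 37.6%, thus had a starting level close to that of Foxh1 and, by these means, a higher level in Dnmt1-/- MEFs than any of the 6. With calls pooled, Foxl1 stood at 34.6% and Foxh1 at 42.1% in Dnmt1-/- MEFs, so the order of this pair depends on how CpGs are weighted.

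**Figure D4:**
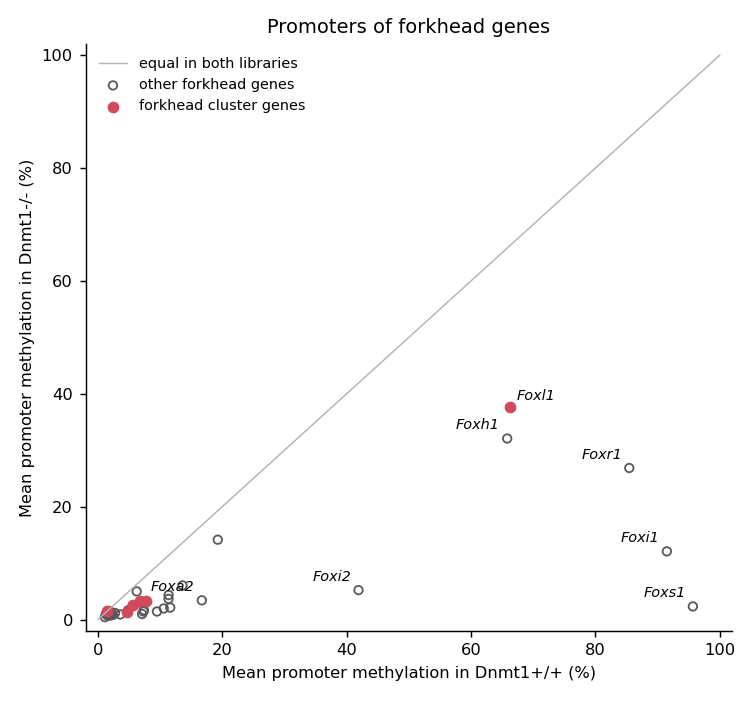
Mean methylation within 1 kb of the start in Dnmt1-/- (percent, vertical axis) against Dnmt1+/+ MEFs (percent, horizontal axis), with the 6 cluster genes as filled red points, 32 other forkhead genes as open circles and a line of equal levels. Most promoters sit in the lower left corner, Foxl1 lies with the methylated promoters on the right, and no promoter is above the line by 10 points.

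The protein-coding genes whose windows were nearest to that of Foxc1, by distance over the means of the 2 libraries among 9397 windows, were 5330438I03Rik, Hoxa13, Hoxa6, Hoxd3 and 5730596B20Rik. Their means were 11.3% and 26.5% at 5330438I03Rik, 9.55% and 24.8% at Hoxa13, 12.4% and 26.7% at Hoxa6, 13.1% and 25.9% at Hoxd3, and 11.4% and 23.1% at 5730596B20Rik, beside 11.2% and 25.5% at Foxc1. The Hox genes encode homeodomain factors that pattern the body axis. Hoxa13, Hoxa6 and Hoxd3 had 5 runs of higher methylation each in their windows, 5730596B20Rik had 1 and 5330438I03Rik had 0, against 2 at Foxc1.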

How the data were processed

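Genomic DNA of Dnmt1+/+ and Dnmt1-/- MEFs, 1 library each, was prepared, sequenced, checked and mapped by a service provider (BaseClear). The processing notes name Bismark and mm9; Bismark's version and parameters, the restriction enzymes, the conversion rate and any removal of duplicates are not given in the sources used here. The authors deposited the depth as a count of calls per CpG and the methylation as a percent of those calls, and left out CpGs with a depth under 10 in either library. All 1790826 positions fell on a CG of NCBIM37. Percent times depth gave whole methylated calls at 100% of CpGs (tolerance 0.001).

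From these, CpGs were assigned to windows with GENCODE vM1 (1-based coordinates). The 6 genes, the 38 other forkhead genes and all rules were chosen with earlier results of these data known. Named items were the 6 genes, all runs of higher and the longest runs of lower methylation in their windows, other forkhead promoters differing by at least 10 points, and the 5 windows nearest to Foxc1. A run was at least 5 consecutive CpGs outside CCGG and TCGA, at most 1 kb apart, each differing by at least 25 points. Fisher's exact tests were adjusted over all CpGs. No test was made over the CpGs of a gene, which share reads. Alternatives were all CpGs, depth of at least 20, pooled calls, thinning to 10 calls, other limits for calls and runs, removal of the deepest 1% of CpGs, windows of 5 kb and promoters of 500 bp. Stretches that allow interruptions and means without them were added after seeing the data. Tests ran in numba 0.67.0, intervals in statsmodels 0.14.6, and tables and figures in pandas 2.3.3 and matplotlib 3.10.9, under Python 3.11.15 with scipy 1.17.1 and numpy 2.4.6. The tests were checked on simulated data.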

Additional observations from a re-analysis of the deposited data

How the results depend on the processing

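The direction of every window mean held under all 24 alternatives. The chromosome 13 difference of 8.49 points was 6.28 with all CpGs, 6.96 at a depth of at least 20, 5.88 with pooled calls and 9.14 with 5 kb either side. It was -3.86 without the Foxc1 and Foxf2 stretches, an alternative added after seeing the data. The chromosome 8 difference of -8.38 points was -7.59 with all CpGs and -7.18 at a depth of at least 20. With all CpGs the window differences were 7.57 at Foxf2, 11.2 at Foxc1, -10.2 at Foxc2 and -19.0 at Foxl1. At a depth of at least 20 they were -6.12 at Foxq1, 10.8 at Foxc1 and -8.54 at Foxc2. With pooled calls they were 7.14 at Foxf2, 10.7 at Foxc1, -5.35 at Foxf1 and -8.95 at Foxc2. With 5 kb either side they were 16.0 at Foxc1, -3.08 at Foxf1, -5.06 at Foxc2, where the Foxl1 gene is left out, and -24.6 at Foxl1.

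Promoter differences kept their sign in 16 of 18 alternatives. With 500 bp either side they were -1.80 at Foxf2, -2.82 at Foxf1 and -0.884 at Foxc2, and with all CpGs -23.7 at Foxl1. The Foxc1 promoter difference of 0.0174 points was -0.0173 with 500 bp and -0.311 with all CpGs.

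Thinning every CpG to 10 calls left 38 CpGs called higher and 5 lower on chromosome 13, and 0 higher and 10 lower on chromosome 8, so fewer calls were detectable at that depth. The share called over the whole table at that depth was not recorded, so these counts stand without a background. A difference of at least 25 points left 24 lower calls on chromosome 13. The 5 runs of higher methylation on chromosome 13 became 3 at 50 points and 2 with interruptions allowed. Runs of lower methylation there numbered 0 as reported, 2 at 10 points, 2 with at least 3 CpGs and 1 with interruptions allowed. On chromosome 8 the 2 runs of lower methylation became 0 at 50 points, 6 at 10 points and 5 with at least 3 CpGs. The causes of these shifts were not tested. No paired analysis was possible because 1 library stood for each genotype, and no value here has a replicate spread.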

Other observations

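Runs of higher methylation were also present near 3 of the 31 other forkhead genes with at least 50 CpGs in their windows, beside 1.57% of 9406 protein-coding windows. They are named here after their values were seen. Within Foxo6, 18.6 kb from its start, 6 CpGs had means of 7.44% in Dnmt1+/+ and 50.5% in Dnmt1-/- MEFs. Near Foxp2, 1.37 kb from the start, 10 CpGs had means of 13.7% and 58.3%. Near Foxp3, on the X chromosome, 5 CpGs had 0% in Dnmt1+/+, at a median depth of 31 calls, and a mean of 27.6% in Dnmt1-/- MEFs. They lie at chrX:7151367-7151383, close enough to share reads. Their 186 summed Dnmt1+/+ calls therefore give no tighter limit than the depth of a single CpG. The 5 genes of this kind, with Foxc1 and Foxf2, include forkhead genes of separate subfamilies and chromosomes. None of the 5 had such a run within 1 kb of its start, but at Foxp3 no CpG outside CCGG and TCGA was measured there.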
